A study of Mus musculus with 6 samples.

Results

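The genes of the platelet-derived growth factor (PDGF) family were examined in fibroblasts sorted from the pubertal mouse mammary gland, by matching the gene identifiers of the count table to 7 family symbols. These were the receptors *Pdgfra* and *Pdgfrb*, the receptor-like gene *Pdgfrl* and the ligands *Pdgfa*, *Pdgfb*, *Pdgfc* and *Pdgfd*, 7 of 27179 genes in the table. All 7 passed the filter on low counts, as did 15219 genes in all. Bulk RNA-seq had been performed on CD34hi and CD34lo fibroblasts, both sorted as Lin-CD24-Pdgfrα+ cells (Lin being CD31, CD45 and TER-119, which mark endothelial, blood and erythroid cells) from FVB/NJ females (strain FVB/N in the labels) at 6 weeks of age, without a transgene or treatment. Each of 3 pools of 2 mice gave 1 library of each population, so there were 3 libraries per population, paired by pool. Since Pdgfrα protein was a gate for both populations, the level of *Pdgfra* within them was also subject to that gate.

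PDGFs are secreted dimers that act through receptor tyrosine kinases. The A and B chains are cut inside the cell by proprotein convertases and leave it active, whereas the C and D chains are secreted with a CUB domain that keeps them inactive until a protease removes it outside the cell. PDGF-AA and PDGF-CC act on Pdgfrα, PDGF-DD acts mainly on Pdgfrβ, and PDGF-BB binds both receptors. In connective tissue, Pdgfrα is a common marker of fibroblasts, and Pdgfrβ is found on fibroblasts, pericytes and vascular smooth muscle.

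The libraries held between 28764779 and 52402410 counts on genes. Expression is given as counts per 1000000 (CPM) after scaling of library totals by the trimmed mean of M-values (TMM), and 3 counts, the smallest amount taken as detectable, corresponded to 0.0553 to 0.108 CPM (counting error only). *Cd34* had 2570 ± 75.2 CPM (SD, n = 3) in CD34hi and 633 ± 158 CPM (SD, n = 3) in CD34lo fibroblasts, which followed the sort. All 7 fibroblast markers listed, *Pdgfra* among them, were detected. Their summed level was 66700 to 84300 CPM in CD34hi and 94300 to 105000 CPM in CD34lo libraries. The markers did not all go the same way by the edgeR test described below. *Igfbp5* was higher in CD34hi (8401 CPM, against 766.5 CPM in CD34lo). *Lum*, *Col1a1*, *Col1a2* and *Pdgfra* were higher in CD34lo, and *Dcn* and *Col3a1* did not pass. The 5 macrophage and leukocyte markers summed to 1.99 to 2.93 CPM in CD34hi and 4.13 to 5.2 CPM in CD34lo libraries. In bulk samples, fewer cells of a type and less RNA per cell cannot be told apart. Log2 fold changes are CD34hi vs CD34lo, so a negative value means higher expression in CD34lo fibroblasts.

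*Pdgfc* and *Pdgfd* were higher in CD34hi fibroblasts, by 22.2 and 5.2 times in mean CPM. *Pdgfrb*, *Pdgfra*, *Pdgfrl* and the ligand *Pdgfa* were higher in CD34lo fibroblasts, by 3.67, 1.67, 1.56 and 3.77 times. *Pdgfb* was low in both populations and its difference did not pass the test. Thus 6 of the 7 genes had an adjusted p under 0.05 (quasi-likelihood test of edgeR, adjusted by Benjamini-Hochberg over all 15219 genes), 2 towards CD34hi and 4 towards CD34lo, where 35.6% of all tested genes passed, 16.9% towards CD34hi and 18.7% towards CD34lo. With the pools as a replicate block the same counts of members passed, 6 of 7 with 2 and 4 in each direction, where 40.5% of all genes passed, 19.6% towards CD34hi and 20.9% towards CD34lo. In the same 6 genes the 3 CD34hi libraries did not overlap the 3 CD34lo libraries, which held for 50.1% of all tested genes (24.8% higher in CD34hi and 25.3% in CD34lo). Each of the 7 genes had the same direction within all 3 pools, as did 65.6% of all tested genes.

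**Figure D1:**
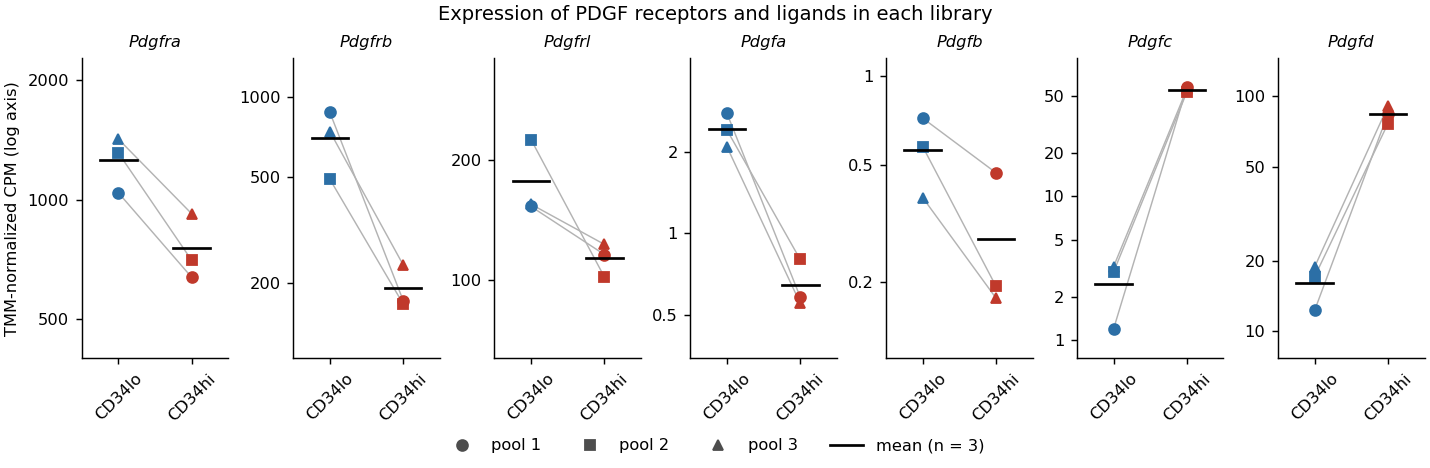
TMM-normalized CPM (log axis) of each PDGF gene in the 3 CD34lo and 3 CD34hi libraries, with lines joining libraries of the same mouse pool and bars at the mean. *Pdgfc* and *Pdgfd* lie higher in every CD34hi library, *Pdgfra*, *Pdgfrb*, *Pdgfrl* and *Pdgfa* lie higher in every CD34lo library, and the populations overlap for *Pdgfb*.

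The promoters of *Pdgfc* and *Pdgfd* are shown because these were the members that moved together towards CD34hi fibroblasts. Sequences are from RefSeq (GRCm38.p6), whose promoter table held 4 of the 7 genes, and each gives the 250 bases before the annotated start, 5′ to 3′ on the gene's strand. The *Pdgfc* window is chr3:81036166-81036415 (+ strand) and ends at the first base before the start of the gene in the count table. The *Pdgfd* window is chr9:6168236-6168485 (+ strand), and the gene starts 126 bases further downstream in the count table than in RefSeq. Capitals mark matches to the motifs searched.
Pdgfc: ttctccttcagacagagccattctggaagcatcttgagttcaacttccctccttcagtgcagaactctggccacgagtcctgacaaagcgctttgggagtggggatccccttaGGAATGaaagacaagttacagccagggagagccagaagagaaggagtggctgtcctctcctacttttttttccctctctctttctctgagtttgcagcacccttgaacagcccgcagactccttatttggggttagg
Pdgfd: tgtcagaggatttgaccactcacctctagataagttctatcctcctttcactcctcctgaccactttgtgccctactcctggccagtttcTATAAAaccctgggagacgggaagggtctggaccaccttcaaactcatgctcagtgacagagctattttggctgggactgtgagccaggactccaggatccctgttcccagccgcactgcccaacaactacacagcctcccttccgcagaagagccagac
Both strands were searched for the letters of 5 sites. The core promoter letters TATAAA were present in 12.4% of 32851 promoter windows of the same length, and the letters CCAAT, bound by NF-Y, were present in 33.8%. The SP1 letters GGGCGG were present in 32.7%, the AP-1 letters TGANTCA in 6.75% and the TEAD letters CATTCC in 12.6%. No matches overlapped in the windows printed. *Pdgfc* had 1 match, to CATTCC on the opposite strand, 137 to 132 bases before the start. *Pdgfd* had 1 match, to TATAAA, 160 to 155 bases before the start. The G and C content was 50.8% for *Pdgfc* and 53.6% for *Pdgfd*, against a median of 52.4% over all windows. The windows shared none of the motifs searched, and a match describes letters only.

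*Pdgfra* (gene 18595, chromosome 5, 75152291 to 75198204 in GRCm38/mm10) encodes the receptor for PDGF-AA and PDGF-CC. It had 1040, 1310 and 1420 CPM in the CD34lo libraries of pools 1, 2 and 3, and 637, 703 and 921 CPM in the CD34hi libraries of the same pools. The highest CD34hi library lay below the lowest CD34lo library. It differed by -0.74 on the log2 scale (SE 0.19, edgeR adjusted p = 0.0148), and the differences within pools were -0.70, -0.90 and -0.62. The direction held in every fit, but the call was lost without pool 1 (adjusted p = 0.0586), pool 2 (0.117), the CD34lo library of pool 3 (0.0534), or the CD34hi library of pool 1 (0.0698) or pool 2 (0.0677), all from edgeR.

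*Pdgfrb* (gene 18596, chromosome 18, 61045150 to 61085067) encodes the receptor for PDGF-BB and PDGF-DD and differed most among the receptor genes. Its CD34lo libraries had 873, 490 and 740 CPM in pools 1, 2 and 3, and its CD34hi libraries had 172, 167 and 234 CPM. All CD34lo libraries were above the CD34hi libraries, and pool 2 was the lowest in both populations. The difference was -1.88 on the log2 scale (SE 0.23, edgeR adjusted p = 0.000365), and the differences within pools were -2.35, -1.55 and -1.66. Of all tested genes, 10.7% had a larger absolute log2 fold change.

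Markers of vascular mural cells, which also carry Pdgfrβ, were examined beside *Pdgfrb*. All 5 smooth muscle markers (*Myh11*, *Acta2*, *Tagln*, *Cnn1* and *Des*) were higher in CD34lo fibroblasts by the same test. Their summed level was 91.9 to 133 CPM in CD34lo and 12.8 to 14.2 CPM in CD34hi libraries. Among the CD34lo libraries it was highest in pool 1 and lowest in pool 2, as *Pdgfrb* was. Among the CD34hi libraries it was highest in pool 2 (14.2 CPM), where *Pdgfrb* was lowest (167 CPM). Of the 7 pericyte markers, *Rgs5*, *Mcam*, *Cspg4* and *Notch3* were higher in CD34lo, *Kcnj8* was higher in CD34hi, *Abcc9* did not pass (log2 fold change 0.21) and *Higd1b*, with at most 19 counts per library, was not tested. The 7 summed to 157 to 241 CPM in CD34lo and 137 to 193 CPM in CD34hi libraries, and none was at 0 throughout. Among the CD34lo libraries this sum was lowest in pool 1 and highest in pool 2, unlike *Pdgfrb*. Much of that sum was *Abcc9*, and the other 6 summed to 68.9 to 93.5 CPM in CD34lo and 36.9 to 49.1 CPM in CD34hi libraries, without overlap. *Abcc9* was left out of this sum after seeing the data, and with all 7 markers the populations overlapped. The part of mural cells in the *Pdgfrb* difference was not tested.

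*Pdgfrl* (gene 68797, chromosome 8, 40926233 to 40990782) encodes a secreted protein that resembles the extracellular part of the PDGF receptors and has no kinase domain. It had 153, 225 and 155 CPM in the CD34lo libraries and 116, 102 and 123 CPM in the CD34hi libraries of pools 1, 2 and 3. The populations did not overlap, although the CD34lo library of pool 2 stood well above the other CD34lo libraries. On the log2 scale the difference was -0.64 (SE 0.17, edgeR adjusted p = 0.018), and the differences within pools were -0.40, -1.14 and -0.33. Without pool 2 the log2 fold change was -0.36 (adjusted p = 0.17 from edgeR), and the call was also lost without pool 1 (0.0518) or without the CD34hi library of pool 1 (0.0564) or pool 2 (0.0825).

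*Pdgfc* (gene 54635, chromosome 3, 81036416 to 81214031) had the largest difference of the family. This ligand of Pdgfrα had 1.2, 2.98 and 3.25 CPM in the CD34lo libraries, from 65, 83 and 101 counts, and 57, 52.9 and 55.4 CPM in the CD34hi libraries, from 2550, 1916 and 2512 counts. The CD34hi libraries lay close together, and the CD34lo library of pool 1 was the lowest. The fitted log2 fold change reached 4.52 (SE 0.33, edgeR adjusted p = 1.93e-05), with 5.57, 4.15 and 4.09 within pools 1, 2 and 3. Only 1.48% of the tested genes had a larger absolute log2 fold change.

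*Pdgfd* (gene 71785, chromosome 9, 6168612 to 6377519), the other CUB-domain ligand, had 12.3, 17.1 and 18.8 CPM in CD34lo and 83.9, 76.3 and 90.4 CPM in CD34hi libraries of pools 1, 2 and 3. Every CD34hi library was far above the highest CD34lo library. On the log2 scale *Pdgfd* differed by 2.38 (SE 0.17, edgeR adjusted p = 1.84e-05), and the differences within pools were 2.77, 2.16 and 2.27. Markers of other cells were also higher in CD34hi libraries, as *Pdgfc* and *Pdgfd* were. The keratinocyte markers *Krtdap* and *Krt10* both passed and summed to 14.3 to 19.9 CPM in CD34hi and 3.59 to 7.12 CPM in CD34lo libraries. The 3 Schwann cell markers summed to 37.2 to 47.7 CPM in CD34hi and 13.6 to 16.5 CPM in CD34lo libraries, with 1 marker higher in each population, *Mbp* (log2 fold change 1.88) being the one higher in CD34hi. The part of these cells in the *Pdgfc* and *Pdgfd* differences was not tested. *Ddi1* lies within *Pdgfd* on the opposite strand and had 12 counts in all libraries against 12348 for *Pdgfd*.

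*Pdgfa* (gene 18590, chromosome 5, 138976971 to 138994953), which encodes the A chain, went the opposite way from *Pdgfc* and *Pdgfd*. The CD34lo libraries had 2.78, 2.41 and 2.09 CPM (151, 67 and 65 counts) and the CD34hi libraries 0.581, 0.8 and 0.551 CPM (26, 29 and 25 counts). The populations did not overlap, at levels well above the floor in every library. Its fitted log2 fold change was -1.92 (SE 0.29, edgeR adjusted p = 0.00109), with -2.26, -1.59 and -1.92 within pools. *Pdgfa* is made by many epithelia, and the 5 epithelial markers summed to 25.9 to 36.6 CPM in CD34lo and 30.6 to 36.7 CPM in CD34hi libraries. Their log2 fold changes lay between -0.22 and 0.39, and their adjusted p from edgeR was at least 0.353 (*Epcam*). The part of epithelial or other cells in the *Pdgfa* difference was not tested.

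*Pdgfb* (gene 18591, chromosome 15, 79995874 to 80014808), best known as a product of endothelial cells and platelets, had between 7 and 39 counts per library. It had 0.719, 0.575 and 0.386 CPM in CD34lo and 0.469, 0.193 and 0.176 CPM in CD34hi libraries of pools 1, 2 and 3. The populations overlapped, since the CD34hi library of pool 1 lay above the CD34lo library of pool 3. The estimate was -1 on the log2 scale (95% confidence interval -2.18 to 0.17, edgeR adjusted p = 0.168), so a difference was not detectable at this depth. Of the 7 endothelial markers, *Pecam1*, *Cdh5* and *Emcn* were higher in CD34lo, *Kdr* was higher in CD34hi, and *Vwf*, *Tie1* and *Cldn5* did not pass (log2 fold changes -1.20, -1.05 and -0.72), although *Vwf* (adjusted p = 0.00545 from edgeR) and *Tie1* (0.00795) passed with the replicate block. The summed level of the 7 was 39.5 to 64.6 CPM in CD34lo and 54.1 to 99.3 CPM in CD34hi libraries, and none was at 0 throughout. Most of the CD34hi sum was *Kdr*. The other 6 summed to 35 to 59.2 CPM in CD34lo and 10.2 to 28.4 CPM in CD34hi libraries, without overlap. *Kdr* was left out of this sum after seeing the data, and the difference of *Pdgfb* itself did not pass. Among 4 megakaryocyte and platelet markers, which summed to 24 to 33.6 CPM in CD34lo and 14 to 17.9 CPM in CD34hi libraries, *Pf4* had 1 count in all libraries and *Ppbp* at most 4 in any. Nearly all of that sum was *Itga2b*, at 28.7 CPM in CD34lo and 15.3 CPM in CD34hi fibroblasts, and both sorts had depleted cells with CD31, CD45 or TER-119. The part of endothelial cells and platelets in the *Pdgfb* counts was not tested.

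**Figure D2:**
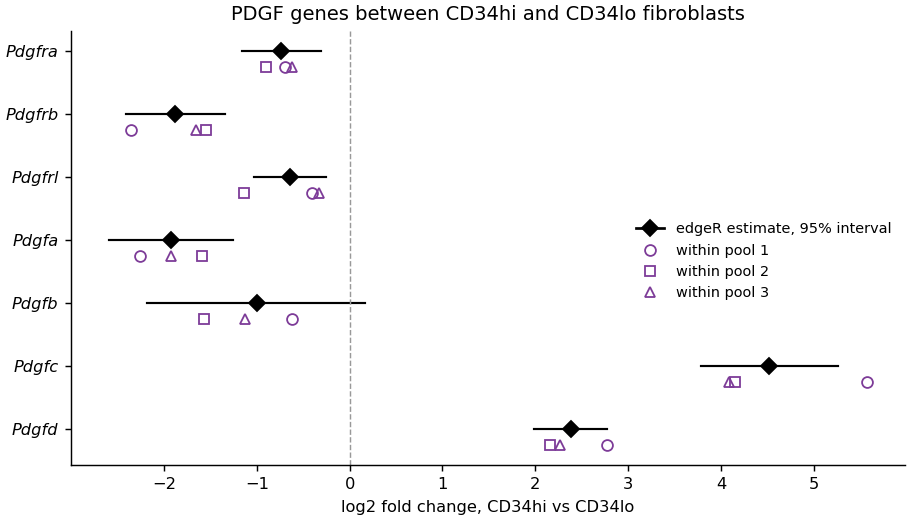
Log2 fold change (CD34hi vs CD34lo) of each PDGF gene, with the edgeR estimate and its 95% confidence interval as diamonds and bars, and the difference within each of the 3 mouse pools as open symbols. *Pdgfc* (4.52) and *Pdgfd* (2.38) lie to the right of 0 and the other genes to the left, and only the interval of *Pdgfb* includes 0.

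To compare the genes with each other, CPM was divided by the exonic length in kilobases given in the count table. In CD34lo fibroblasts the order was *Pdgfra* (186 ± 29.2 CPM per kb; SD, n = 3), *Pdgfrb* (130 ± 36), *Pdgfrl* (115 ± 26.5), *Pdgfd* (8.95 ± 1.87), *Pdgfa* (2.38 ± 0.341), *Pdgfc* (0.705 ± 0.317) and *Pdgfb* (0.190 ± 0.0568). The libraries of *Pdgfra* and *Pdgfrb* overlapped, as did those of *Pdgfrb* and *Pdgfrl*, and all other neighbours in the order were separate. In CD34hi fibroblasts the order was *Pdgfra* (112 ± 22.1 CPM per kb; SD, n = 3), *Pdgfrl* (73.7 ± 6.96), *Pdgfd* (46.5 ± 3.95), *Pdgfrb* (35.3 ± 6.94), *Pdgfc* (15.7 ± 0.594), *Pdgfa* (0.632 ± 0.133) and *Pdgfb* (0.0950 ± 0.0559). Here only *Pdgfd* and *Pdgfrb* overlapped.

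Hence *Pdgfd* had a level per length in the range of *Pdgfrb* in CD34hi fibroblasts, but lay far below it in CD34lo fibroblasts. Among all tested genes, *Pdgfra* lay above 98% of genes in CD34lo and 96.4% in CD34hi fibroblasts by level per length. *Pdgfc* lay above 18.8% of genes in CD34lo and 76.2% in CD34hi fibroblasts, and *Pdgfb* above 6.26% and 4.24%. The order of *Pdgfa* and *Pdgfc* was exchanged between the populations.

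**Figure D3:**
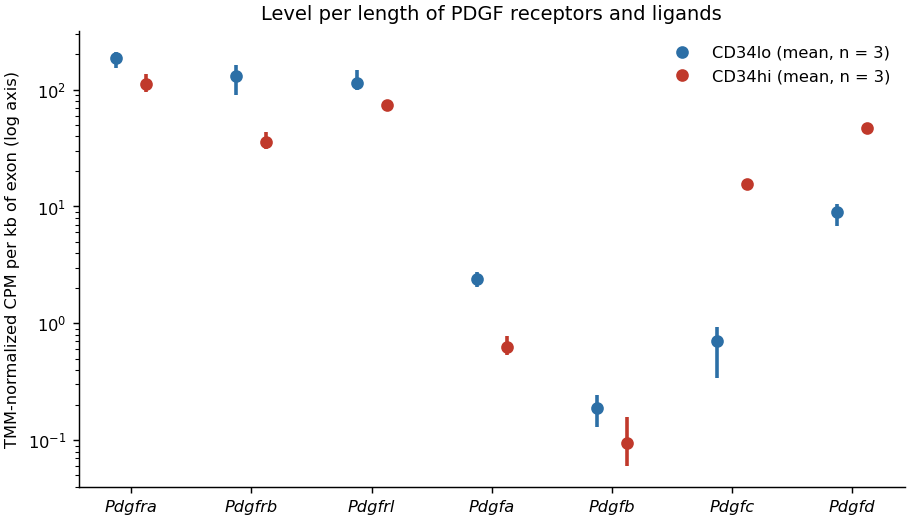
TMM-normalized CPM per kilobase of exon (log axis) of each PDGF gene, with points at the mean of 3 libraries and bars from the lowest to the highest library. In both populations *Pdgfra* is at the top and *Pdgfb* at the bottom, and *Pdgfc* rises from 0.705 in CD34lo to 15.7 in CD34hi fibroblasts.

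The summed level of the 4 ligands was 62.9 ± 4.23 CPM per kb (SD, n = 3) in CD34hi and 12.2 ± 1.8 CPM per kb (SD, n = 3) in CD34lo fibroblasts, 5.15 times higher in CD34hi. The summed level of *Pdgfra* and *Pdgfrb* went the other way, with 147 ± 28.8 CPM per kb (SD, n = 3) in CD34hi and 316 ± 30.7 CPM per kb (SD, n = 3) in CD34lo fibroblasts, 2.15 times higher in CD34lo. The share of each ligand in the sum of the ligands does not depend on the scaling between libraries. *Pdgfc* took 25.5%, 25.8% and 23.6% of ligand transcripts in the CD34hi libraries and 3.35%, 6.56% and 6.82% in the CD34lo libraries of pools 1, 2 and 3. *Pdgfa* took 0.895%, 1.34% and 0.81% in CD34hi and 26.8%, 18.3% and 15.1% in CD34lo libraries. For both ligands the populations were far apart.

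*Pdgfd* had the largest share of ligand transcripts per length in both populations, at 73.9% ± 1.42 (SD, n = 3) in CD34hi and 72.7% ± 4.91 (SD, n = 3) in CD34lo fibroblasts, a difference of 1.15 percentage points within the spread between libraries (exact two-sided permutation p = 0.9). The direction of this difference was not stable, at -14.6 points when counts were not divided by length, -1.26 without pool 1 and -1.51 without the CD34lo library of pool 1. *Pdgfb* took 0.151% ± 0.0869 (SD, n = 3) in CD34hi and 1.63% ± 0.724 (SD, n = 3) in CD34lo fibroblasts. *Pdgfra* made up 74.9%, 77.2% and 76% of the transcripts of *Pdgfra* and *Pdgfrb* in the CD34hi libraries, and 48.8%, 68.3% and 60.6% in the CD34lo libraries. The libraries did not overlap, and the CD34lo libraries were more dispersed. For the shares of *Pdgfa*, *Pdgfb*, *Pdgfc* and *Pdgfra*, the exact two-sided permutation test gave p = 0.1, the smallest that 3 libraries against 3 allow, and 0.125 after Benjamini-Hochberg adjustment over the 5 shares, so this design could not reach the threshold.

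**Figure D4:**
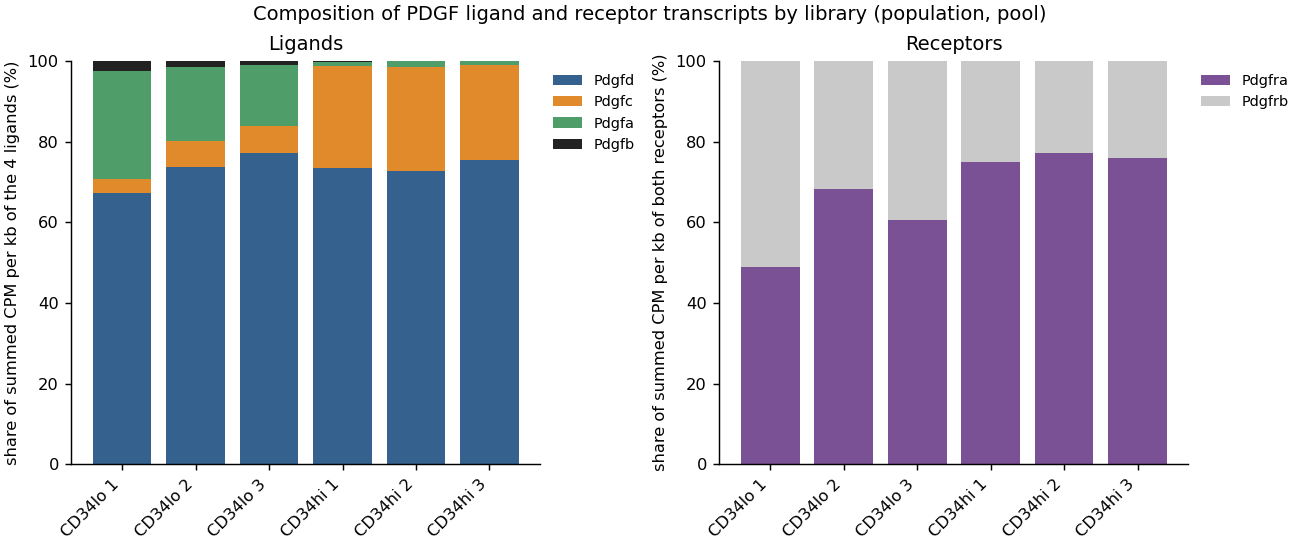
Share (%) of each ligand in the summed CPM per kb of the 4 ligands (left) and of each receptor in the sum of *Pdgfra* and *Pdgfrb* (right) in each library, named by population and pool. *Pdgfd* takes between 67.4% and 77.1% in every library, and the rest is mostly *Pdgfa* in CD34lo and *Pdgfc* in CD34hi libraries.

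Other genes of PDGF signalling were taken from 3 lists with 38 genes, of which 37 were tested. Of these, 20 passed the test (54.1%, against 35.6% of all genes), 10 in each direction, and the median log2 fold change was 0.04 against -0.0064 for all genes. The lists were chosen with earlier results of these data known, and whether they held more passing genes than other genes was not tested. A list of related growth factors and receptors outside PDGF signalling added 11 genes, and with it 26 of 47 tested genes passed. Of the 26, 17 kept an adjusted p under 0.05 in all 19 alternatives to the test, scaling, filter or set of libraries, and 9 lost it in at least 1.

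Among 9 genes of ligand processing and binding, 3 were higher in CD34hi and 3 in CD34lo fibroblasts (66.7%, against 35.6% of all genes). The median log2 fold change of the list was 0.04. *Plau*, the urokinase-type plasminogen activator that can cut PDGF-D, had 797 ± 28.2 CPM (SD, n = 3) in CD34hi and 241 ± 24.3 CPM (SD, n = 3) in CD34lo fibroblasts (log2 fold change 1.73, adjusted p = 2.51e-05 from edgeR). *Plat*, the tissue-type activator that cuts PDGF-C, had 926 ± 36.6 CPM (SD, n = 3) and 527 ± 56.8 CPM (SD, n = 3) (log2 fold change 0.81, adjusted p = 0.0017 from edgeR). Both were higher in CD34hi fibroblasts, as were their ligand substrates. *St14*, which encodes matriptase, another protease of PDGF-D, was low, at 1.74 CPM in CD34hi and 1.67 CPM in CD34lo fibroblasts (log2 fold change 0.06, 95% confidence interval -0.72 to 0.84).

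Of the proprotein convertases, *Pcsk6* was higher in CD34hi (log2 fold change 3.41) and *Pcsk5* in CD34lo fibroblasts (-0.84). *Furin*, which can cut the A and B chains, had 62.4 CPM in CD34hi and 60.9 CPM in CD34lo fibroblasts (log2 fold change 0.04, 95% confidence interval -0.24 to 0.31). *Nrp1*, a co-receptor for several growth factors, was higher in CD34lo fibroblasts (-1.60). *Sparc*, which encodes a matrix protein that binds PDGF-B, was also higher in CD34lo (-0.82, adjusted p = 0.00256 from edgeR), but did not pass without pool 1 (0.0575). *Lrp1*, an endocytic receptor that associates with Pdgfrβ, did not pass (-0.29, 95% confidence interval -0.67 to 0.09).

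Among 22 genes of receptor-proximal signalling, 21 were tested, and 4 were higher in CD34hi and 4 in CD34lo fibroblasts (38.1%, near the 35.6% of all genes). The median log2 fold change of the list was -0.07. The adaptor gene *Grb10* (log2 fold change 1.73), the Src-family kinase gene *Fyn* (1.38) and the adaptor gene *Crk* (0.67) were among those higher in CD34hi fibroblasts. The adaptor genes *Nck2* (-0.99) and *Gab1* (-0.51), the phosphoinositide 3-kinase subunit gene *Pik3r1* (-0.56) and the kinase gene *Yes1* (-0.48) were higher in CD34lo fibroblasts. The other 13 tested genes had log2 fold changes between -0.27 and 0.36, among them *Src* (0.34), *Grb2* (0.29), *Ptpn11* (0.27), *Sos1* (-0.10), *Pik3ca* (-0.11), *Plcg1* (-0.25) and *Shc1* (-0.27). *Stat5b* (0.36) passed once pools entered the edgeR fit as a replicate block (adjusted p = 0.0281) and not without it (0.0749). The 8 calls became 5 without pool 1 and 4 without pool 2. The highest adjusted p (edgeR) with a pool or library left out was 0.101 for *Gab1* (without pool 1), 0.18 for *Pik3r1* (without pool 2) and 0.0889 for *Yes1* (without pool 1). The log2 fold change of *Yes1* was -0.31 without pool 3.

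All 7 genes of receptor down-regulation were tested, and 3 were higher in CD34hi and 3 in CD34lo fibroblasts (85.7%, against 35.6% of all genes). The median log2 fold change of the list was 0.38. *Ptprj* (1.29), a receptor phosphatase that acts on Pdgfrβ, was higher in CD34hi, and *Rasa1* (-1.36), a Ras GTPase-activating protein that binds the activated receptor, and *Ptpn1* (-1.10), a phosphatase of receptor tyrosine kinases, were higher in CD34lo fibroblasts. Of the ubiquitin ligase genes, *Cblb* (0.38) was higher in CD34hi and *Cbl* (-0.43) in CD34lo. *Acp1* (0.50), a small phosphatase, was higher in CD34hi. *Ptpn2* (0.48), another phosphatase of Pdgfrβ, passed with the replicate block (adjusted p = 0.00734 from edgeR) and not without it (0.0933). The 6 calls became 3 without pool 2 or without its CD34hi library, and 4 with upper-quartile scaling, which ended those of *Cblb* (edgeR adjusted p = 0.0591) and *Acp1* (0.0569). The highest adjusted p (edgeR) with a pool or library left out was 0.133 for *Cbl* (without pool 1), 0.194 for *Cblb* and 0.233 for *Acp1* (both without pool 2).

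The VEGFs share the cystine-knot fold of the PDGFs, and their receptors are close relatives of the PDGF receptors. Of 11 related genes, 10 were tested, and 4 were higher in CD34hi and 2 in CD34lo fibroblasts (60%, against 35.6% of all genes). The median log2 fold change of the list was 0.10. *Vegfd* (1.83), *Pgf* (2.57), *Vegfb* (0.67) and the receptor gene *Kdr* (3.14) were higher in CD34hi fibroblasts. *Vegfc* (-2.74) and the receptor gene *Flt1* (-1.24) were higher in CD34lo fibroblasts, and the highest adjusted p (edgeR) of *Flt1* with a pool or library left out was 0.101 (without pool 2). *Pgf* had 16.7 ± 10 CPM (SD, n = 3) in CD34hi and 2.85 ± 1.22 CPM (SD, n = 3) in CD34lo fibroblasts, a wide spread between the CD34hi libraries. *Vegfa* had a log2 fold change of -0.25 (95% confidence interval -0.77 to 0.27). *Kit* and *Csf1r*, which encode the nearest relatives of the PDGF receptors, were low and did not pass. They had 2.63 and 0.544 CPM in CD34hi and 1.96 and 1.05 CPM in CD34lo fibroblasts. The CD34hi mean of *Kit* was carried by pool 2 (5.6 CPM, against 1.23 and 1.06 CPM in pools 1 and 3). *Kdr* is also on the endothelial list, and no other marker of that list was higher in CD34hi fibroblasts.

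**Figure D5:**
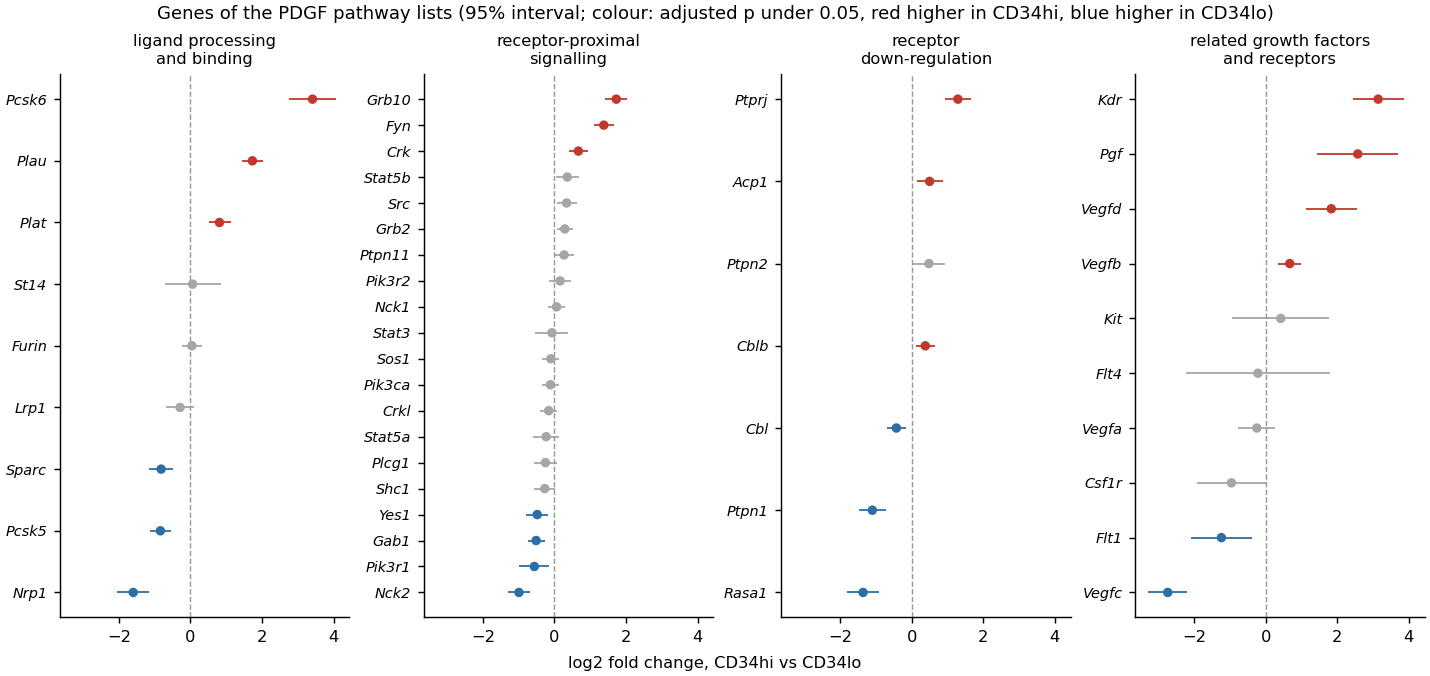
Log2 fold change (CD34hi vs CD34lo) and 95% confidence interval of the genes of the 4 lists that were tested and are reported by name, in red or blue where the adjusted p was under 0.05 towards CD34hi or CD34lo and in grey otherwise. Each list has genes on both sides of 0, with *Pcsk6* (3.41) and *Kdr* (3.14) farthest to the right and *Vegfc* (-2.74) farthest to the left.

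As a description, the genes with a mean log2 CPM of at least 3 whose log2 CPM over the 6 libraries was most like each member were found by Pearson's r. For *Pdgfc* these included *Cd200* (r = 0.999), and for *Pdgfd* they were *Leprot* (0.9995) and *Mapk9* (0.9994). For *Pdgfra* they included *Ints6l* (0.9954), for *Pdgfrb* *Cdc42ep4* (0.9983) and *Eva1b* (0.9974), and for *Pdgfrl* *Syne1* (0.992) and *Prrt2* (0.9896). For *Pdgfa* they were *Zfp407* (0.9951) and *Cdc7* (0.9945), and for *Pdgfb* *Tfpi2* (0.9919) and *Tmem115* (0.9909). The 6 libraries form 2 populations, so that any gene with a steady difference between them correlates well, and of 8870 or 8871 candidate genes 16.3% had an r above 0.9 with *Pdgfc*, 16.4% with *Pdgfd*, 11.5% with *Pdgfa*, 10.5% with *Pdgfrb*, 5.42% with *Pdgfra*, 2.83% with *Pdgfrl* and 1.42% with *Pdgfb*.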

How the data were processed

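RNA from 6 libraries of sorted fibroblasts (polyA, TruSeq RNA v2, which does not mark strand) was sequenced on an Illumina NextSeq. The authors used Rsubread 2.2.6 for alignment (GRCm38/mm10) and counting. The deposited values are raw counts per gene and library, from 28764779 to 52402410 in total. The annotation and strand setting of the counting are not given in the sources used here. In GENCODE (GRCm38), genes on the opposite strand overlap the gene bodies of *Pdgfra*, *Pdgfa*, *Pdgfb*, *Pdgfc* and *Pdgfd*. Where exons overlap, reads cannot be told apart without strand, and overlap of exons was not examined. Symbols came from RefSeq (25275 of 27179 genes matched).

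Genes were tested with edgeR 4.0.16 (R 4.3.3): filterByExpr by population, TMM, dispersion estimation and the quasi-likelihood test without a pool term, as the study's methods name none. Benjamini-Hochberg adjustment covered all 15219 genes, and adjusted p under 0.05 was called. Each standard error (SE) was derived as |log2 fold change| over the square root of F. Log2 CPM for likeness and pairing used a prior count of 2. The common coefficient of variation was 19.7%. Libraries of the same pool come from the same mice, and across genes their deviations from the population means had an r of 0.279, 0.0844 and 0.243 in the 3 pools. Replicate libraries differed by more than the sampling noise (chi-square per degree of freedom at least 23.5). The scripts were tested on simulated counts with known changes. There edgeR without a pool term tested 15019 genes and recovered 63 of 107 (58.9%) with a log2 fold change of 1 in either direction. At a log2 fold change of 2 it recovered 78 of 92 (84.8%). Changed genes were thus a far smaller share there than the 35.6% that passed in the deposited counts. Recovery at a share of that size was not tested.

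The alternatives were limma-voom (limma 3.58.1), DESeq2 1.42.0, RLE or upper-quartile scaling, no filter, at least 10 counts in every library, genes with a symbol only, the mouse pool as replicate block in edgeR and limma-voom, thinned counts, and each pool and each library left out. All 7 members are named. Genes of the lists could be named where they passed, and otherwise only with their values, and the likeness rule picks 2 genes per member. Some genes picked by these rules are not reported here, while counts and medians over the lists include all genes. Marker sums without 1 gene and the count over the 3 signalling lists were added after seeing the data. The members and lists were chosen with earlier results of these data known.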

Additional observations from a re-analysis of the deposited data

How the results depend on the processing

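The direction of all 7 PDGF genes held in each of the 132 fits of a member under an alternative, and the side of the threshold held in 123. Under the minimum of 10 counts per library *Pdgfb* dropped out of the fit. The 9 lost calls were those of *Pdgfra* and *Pdgfrl* with a pool or library left out. Over all fits on leaving out, with or without the call, their log2 fold changes ranged from -0.90 to -0.60 and from -0.79 to -0.36. The other ranges on leaving out were -2.08 to -1.59 for *Pdgfrb*, -2.10 to -1.71 for *Pdgfa*, 4.14 to 4.80 for *Pdgfc* and 2.24 to 2.51 for *Pdgfd*. The number of members higher in CD34lo ranged from 2 to 4 (2 without pool 1, pool 2, or either CD34hi library of these pools), and that of members higher in CD34hi was 2 throughout. With the replicate block, 6161 of all genes passed instead of 5411, and the calls of all 7 members were as before; with limma-voom and the block 6418 passed. On leaving out, the number of genes passing ranged from 3468 (without pool 1) to 5236, that of receptor-proximal signalling from 4 to 8 and that of receptor down-regulation from 3 to 5. The share of *Pdgfd* among the ligands, 1.15 percentage points higher in CD34hi, was -14.6 when counts were not divided by length; this construction weights each gene by its length. It ranged from -1.51 to 3.34 on leaving out, with -1.26 without pool 1 and -1.51 without the CD34lo library of pool 1, in exact permutation tests that could not reach the threshold. Of the passing genes, 42.2% were higher in CD34hi with upper-quartile scaling, against 47.5% with TMM. Apart from the length weighting and the smaller number of libraries, the cause of these changes was not tested.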
